A study of Mus musculus with 4 samples.

Results

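To examine how depletion of CNOT1 bears on the machinery that caps and extends chromosome ends, 9 transcripts were followed in mouse embryonic stem cells (ESCs). They comprise the shelterin genes Terf1, Terf2, Terf2ip, Tinf2, Acd, Pot1a and Pot1b, the telomerase gene Tert, and Ctc1 of the CST complex. They were picked by gene symbol for their role, though with earlier results of these data known. All 9 were found among the 50559 genes of the count table. The cells were of E14, an established mouse ESC line grown without feeder cells on gelatin with leukemia inhibitory factor. The study also used ESCs with a tdTomato transgene under the MERVL promoter, and the sources used here do not say whether these libraries came from them. They were transfected with a non-targeting siRNA (siNT) or with an siRNA against Cnot1 (siCnot1) at 150 nM and collected after 48 h. Which of the study's Cnot1 siRNAs was used is not given in the sources used here. Poly(A)+ RNA-seq was available for 2 biological replicates per group, 4 libraries in all, from 1 cell line.

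Mammalian telomeres are TTAGGG repeats covered by shelterin. TRF1 (Terf1) and TRF2 (Terf2) bind the double-stranded repeats, RAP1 (Terf2ip) binds TRF2, TIN2 (Tinf2) bridges the complex, and TPP1 (Acd) tethers the single-strand binding POT1 proteins, of which the mouse has a pair, POT1a and POT1b. Telomerase, with TERT as its reverse transcriptase, adds repeats, and CST (CTC1, STN1 and TEN1) brings in polymerase alpha-primase to fill in the complementary strand. In ESCs telomeres are also lengthened in brief bursts of ZSCAN4, a protein of the 2-cell-like (2C-like) state.

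Library totals ranged from 32135824 to 32557440 counts. Cnot1 itself fell from 949 ± 51.7 to 188 ± 5.14 normalised CPM (counts scaled to 1000000 per library after TMM normalisation, mean ± SD, n = 2 per group), 19.8% of the control level. The 8 ESC markers examined, Pou5f1, Sox2 and Nanog among them, summed to 6569 to 6790 normalised CPM in siNT and 5532 to 5873 in siCnot1. By edgeR at an adjusted p under 0.05, 6 of the 8 fell. Over all tested genes, 15% were higher and 14.7% lower by this test, which also applies to the marker calls below. The ESC marker calls were examined under TMM scaling only. Of the ESC markers that fell, only Sox2 and Tfcp2l1 had raw counts that overlapped between the groups. The 9 markers of 2C-like cells summed to 68.5 and 68.6 in siNT and to 175 and 181 in siCnot1, with 6 of the 9 higher. Of the 6 fibroblast markers, Col3a1 and Dcn had no count in any library and Postn too few to be tested, 1 of the other 3 rose, and the list summed to 8.94 and 12.2 normalised CPM in siNT and 12.7 and 13.3 in siCnot1. The 5 primitive endoderm markers summed to 8.49 and 10.7 in siNT and to 13.7 and 14.6 in siCnot1, and the 5 trophectoderm markers to 60.9 and 63.7 and to 45.1 and 45.2, with 1 of 5 higher in the former and, Elf5 being too low to test, 1 of 4 higher and 1 of 4 lower in the latter. Most of the trophectoderm sum was Tfap2c, which fell by 0.48 on the log2 scale, while Krt7, which rose, had 2 and 4 counts in siNT and 16 and 22 in siCnot1. The part that these marker shifts played in the values below was not tested, and in bulk RNA fewer cells of a type and less RNA per cell cannot be told apart.

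Levels were compared between genes as normalised CPM per kilobase of exon. In siNT cells the order was Terf1 at 58.8 ± 1.13, Ctc1 at 26.7 ± 0.0276, Pot1a at 19.8 ± 1.53, Tinf2 at 18.8 ± 1.18 and Acd at 18.04 ± 0.0561 (SD, n = 2 each). Below them came Terf2 at 15.6 ± 0.253, Terf2ip at 11.3 ± 0.400, Tert at 2.84 ± 0.534 and Pot1b at 2.54 ± 0.355 (SD, n = 2 each). The libraries of Pot1a and Tinf2, of Tinf2 and Acd, and of Tert and Pot1b overlapped, so these neighbours in the order did not differ beyond their spread. Against a median of 3.36 over all tested genes in siNT, 7 of the 9 transcripts were well expressed, while Tert and Pot1b lay at percentiles 47.5 and 45.9. Terf1 was thus the most abundant shelterin transcript per length and Pot1b the least, in both groups. In siCnot1 cells the first and second ranks were unchanged, at 41.0 ± 0.666 for Terf1 and 30.6 ± 0.396 for Ctc1 (SD, n = 2 each), while Tinf2 (19.3 to 20.3) stood above Pot1a (15.1 to 18.2), and Acd passed below Terf2.

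**Figure D1:**
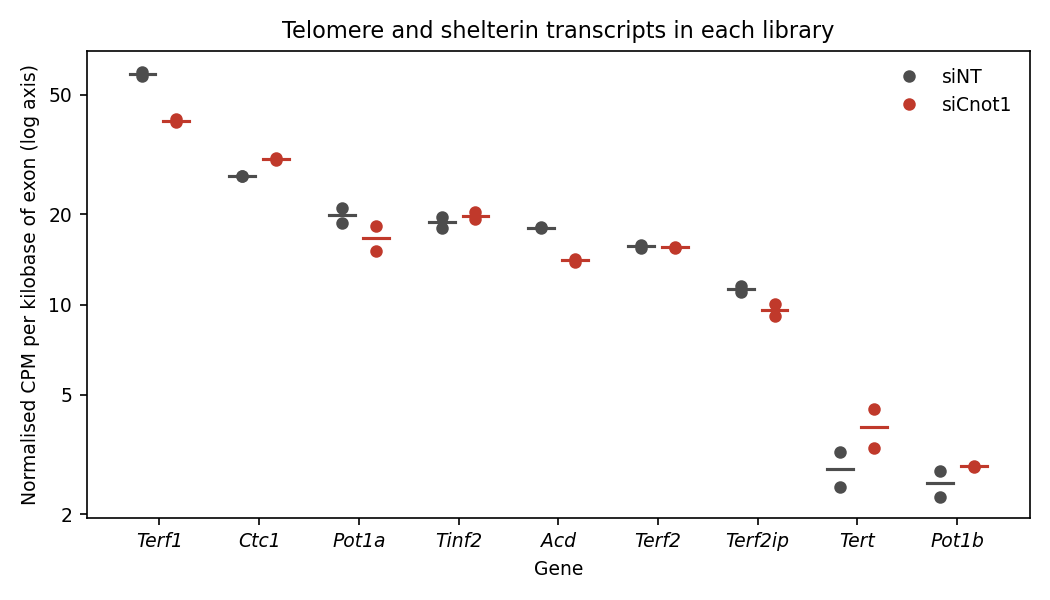
Levels of the 9 transcripts in each library, as normalised CPM per kilobase of exon on a log axis, with genes ordered by their siNT mean. Points are libraries (2 siNT in grey, 2 siCnot1 in red) and short lines are group means; Terf1 drops from 58.8 to 41.0 and remains the highest, while Tert and Pot1b lie under 5 in every library.

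Short regulatory letters were looked up in the transcripts and promoters, to show what the members carry in regions where RNA-binding and DNA-binding factors act. Pumilio proteins and the AU-rich element binding protein ZFP36 are known to recruit CCR4-NOT, the deadenylase complex that CNOT1 scaffolds. In the 3′ UTRs of GENCODE M21 (GRCm38), joined by gene name with 1 transcript for each of the 9 genes, the Pumilio element TGTANATA (N is any base) occurred once in 3 members and the AU-rich element TATTTAT once in 3 members, with Pot1b holding both. Only the transcript strand was read, and the letters do not overlap each other in these UTRs. Among all 13717 tested genes with a 3′ UTR, 23.6% held the Pumilio element and 27.2% the AU-rich element. The windows below give each match in capitals with 10 bases on either side.
Terf1 AU-rich element, chr1:15843926-15843952 (plus strand): cctattgaaaTATTTATgagaaagtca
Terf2 Pumilio element, chr8:107069749-107069776 (minus strand): aaatggtgatTGTAGATAagcttagccg
Terf2ip Pumilio element, chr8:112018825-112018852 (plus strand): ctcagttttgTGTACATAaagccctagg
Pot1a AU-rich element, chr6:25744411-25744437 (minus strand): attttattgtTATTTATgctgtcttgt
Pot1b AU-rich element, chr17:55653232-55653258 (minus strand): attgtattgtTATTTATaccttcttgt
Pot1b Pumilio element, chr17:55652970-55652997 (minus strand): ataatgtgagTGTAGATAataacacatt
The AU-rich element sat 154 bases into the 3′ UTR of Pot1a and 158 bases into that of Pot1b, within similar flanks. A 3′ UTR of about the same length (0.8 to 1.2 times) held the AU-rich element in 24.0% of tested genes for Terf1, 21.5% for Pot1a and 33.0% for Pot1b. The corresponding shares for the Pumilio element were 19.6% for Terf2, 37.3% for Terf2ip and 27.9% for Pot1b. Tinf2, Acd, Tert and Ctc1 had neither set of letters in their 3′ UTRs, and the Acd transcript used has a 3′ UTR of 1837 bases, longer than the 1718 exon bases of the deposited gene. Over the 13717 tested genes with a 3′ UTR, the median log2 fold change was 0.0475 with and 0.00924 without the AU-rich element, and 0.0213 with and 0.0191 without the Pumilio element.

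Promoter sequences of 300 bases around the start site (RefSeq, GRCm38.p6) matched 8 of the 9 genes by symbol, all but Terf1. On either strand, the GC box GGGCGG, read by SP1, was found in 6 of the 8 (Terf2, Terf2ip, Pot1a, Pot1b, Tert and Ctc1) and in 35.7% of all 32851 promoters, the E-box CACGTG, read by MYC-family proteins, in 1 of the 8 and in 7.15% of all, and the ZSCAN4 motif TGCACAC in 0 of the 8 and in 4.40% of all. TTAGGG, the telomere repeat itself, was found in that of Pot1b alone among the 8 and in 10.6% of all. The E-box of Ctc1 and the GC boxes of Tert are shown for the transcripts that rose, but GC boxes were also in Pot1a, which fell, and in Terf2, Terf2ip and Pot1b, which did not pass the test. Ctc1 also has a pair of overlapping GC boxes on the reverse strand, starting 85 and 81 bases before its start site.
Ctc1 E-box, starting 70 bases before the start site, chr11:69015831-69015856 (plus strand): cgccccacccCACGTGaaacactagg
Tert GC box on the reverse strand, starting 51 bases before the start site, chr13:73626850-73626875 (plus strand): tgctgcgaccCCGCCCcttccgctac
Tert GC box on the reverse strand, starting 14 bases before the start site, chr13:73626887-73626912 (plus strand): cgcctgaatcCCGCCCcttcctccgt
The capitals mark the match, and an absent match says only that these letters are not in this window.

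Upon Cnot1 knockdown, telomere transcripts moved in both directions and by less than 2-fold. By edgeR's quasi-likelihood test at an adjusted p under 0.05, 3 of the 9 fell (Terf1, Acd and Pot1a), 2 rose (Tert and Ctc1), and 4 did not pass the test (Terf2, Terf2ip, Tinf2 and Pot1b). Of all 18144 genes tested, 29.7% passed this threshold, 15% higher and 14.7% lower, so 5 of 9 stands beside a background of about 3 in 10. That background includes genes with fewer counts than the members. With only genes of at least 1 CPM in 2 libraries, 2802 of 14767 were higher and 2644 lower, and still 2 and 3 members. The median log2 fold change was -0.0091 for the 9 transcripts and 0.0084 for all tested genes, and the median absolute log2 fold change was 0.23 and 0.26. The study's own thresholds were a p of 0.05 or less and a change of 2-fold or more in either direction. By these, 0 of the 9 were called with edgeR, with DESeq2 or with limma-voom, beside 7.98% of all genes with edgeR, 6.18% higher and 1.8% lower. At an unadjusted p of at most 0.05 alone, 6 of the 9 passed in edgeR, against 39.3% of all genes. When libraries were scaled by their totals in place of TMM, the median of all tested genes shifted from 0.0084 to 0.12, calls over all genes became 3989 higher and 1567 lower in place of 2719 and 2668, and 1 of the 9 fell and 2 rose.

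Among the DNA-binding subunits, Terf1 fell and Terf2 did not. Terf1, whose product is abundant in pluripotent cells and helps replication forks through the repeats (chromosome 1, 15875634 to 15914276, plus strand), had 6050 and 6263 counts in siNT and 4556 and 4657 in siCnot1. Both siCnot1 libraries lay far below both controls. Its log2 fold change was -0.52 (SE 0.0583, adjusted p = 4.8e-07 from edgeR), a fall to 0.698 of the control level, with a 95% interval of -0.64 to -0.40. It passed under each of the 12 alternatives, including each library left out in turn, where the adjusted p was at most 0.0306.

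Terf2, whose product forms the protective t-loop and blocks end-to-end fusion (chromosome 8, 107796032 to 107823180, minus strand), had 2298 and 2369 counts in siNT and 2495 and 2477 in siCnot1. In normalised CPM the groups overlapped, at 73.9 and 75.6 against 74.5 and 74.0. Terf2 had a log2 fold change of -0.0091 (95% interval -0.15 to 0.13), with an edgeR adjusted p of 0.942, and turned positive with upper-quartile scaling (0.010) or library totals (0.098). Because the counts of a pair of genes within a library share its depth, their ratio does not depend on scaling. The Terf1 to Terf2 ratio per length was 3.76 and 3.77 in siNT, against 2.61 and 2.68 in siCnot1. With 2 libraries against 2, an exact two-sided permutation test cannot go below p = 0.333, so the ratios are given as descriptions.

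Terf2ip encodes RAP1, the partner of TRF2 (chromosome 8, 112737991 to 112747160, plus strand). It had 41.6 and 39.5 normalised CPM in siNT and 33.1 and 36.2 in siCnot1. The libraries of the groups did not overlap, as was true of 31.2% of all tested genes in the lower direction, but the difference did not pass (log2 fold change -0.23, 95% interval -0.42 to -0.037, adjusted p = 0.0657 from edgeR). Kars, a lysyl-tRNA synthetase gene, lies on the opposite strand, with its own start 5 bases from that of Terf2ip. Kars fell by 0.27 on the log2 scale (SE 0.0544, adjusted p = 0.000556 from edgeR). Gm6793, which lies on the opposite strand inside an intron of Terf2ip and shares no exon base with it, also fell, by 0.52 (SE 0.119, adjusted p = 0.00182 from edgeR).

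Of the bridging subunits, Acd fell while Tinf2 did not pass. Acd encodes TPP1, which binds POT1 and recruits telomerase to the chromosome end (chromosome 8, 106424787 to 106427860, minus strand). It had 966 and 969 counts in siNT and 815 and 798 in siCnot1, or 31.1 and 30.9 against 24.3 and 23.8 normalised CPM. Replicates lay within 1 CPM of each other and the groups were well apart. Acd had a log2 fold change of -0.36 (SE 0.0976, adjusted p = 0.00649 from edgeR), 0.778 of the control level. It no longer passed with library totals (-0.26, adjusted p = 0.0508 from edgeR) or without siNT replicate 1 (adjusted p = 0.0839), siNT replicate 2 (0.0785) or siCnot1 replicate 2 (0.0579), while its size stayed between -0.38 and -0.35 with a library left out.

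Tinf2, the bridge between TRF1, TRF2 and TPP1 (chromosome 14, 55913664 to 55919301, minus strand), had 55.7 and 51.0 normalised CPM in siNT and 54.7 and 57.8 in siCnot1, which overlap. Its log2 fold change was 0.076 (95% interval -0.092 to 0.24, adjusted p = 0.528 from edgeR). The Acd to Tinf2 ratio per length was 0.922 and 1.00 in siNT, against 0.736 and 0.682 in siCnot1. Of the exon bases of Tinf2, 232 (8.17%) overlap Gmpr2 on the opposite strand, and of those of Acd 122 (7.1%) overlap Pard6a and Carmil2 on the opposite strand. The counting program's strand setting is not given in the sources used here, so reads there may have gone to the partner or to neither. None of these partners passed the test in edgeR, with log2 fold changes of -0.19 for Gmpr2, -0.074 for Pard6a and 0.24 for Carmil2. The other 7 transcripts shared no exon base with another listed gene.

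Of the POT1 paralogs, Pot1a fell and Pot1b did not pass the test. Pot1a, which in mouse holds back the DNA damage response at telomeres (chromosome 6, 25743939 to 25809280, minus strand), had 56.3 and 62.8 normalised CPM in siNT and 45.4 and 54.7 in siCnot1. The siCnot1 libraries differed by more than the gap between the groups, which was narrow. For Pot1a the log2 fold change was -0.25 (SE 0.0907, adjusted p = 0.0396 from edgeR). The call was lost without siNT replicate 1 (-0.33, adjusted p = 0.174 from edgeR), siNT replicate 2 (-0.17, adjusted p = 0.426) or siCnot1 replicate 1 (-0.12, adjusted p = 0.492), and also with upper-quartile scaling, library totals, no filter on low counts or DESeq2.

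Pot1b, which limits trimming of the 5′ strand at chromosome ends (chromosome 17, 55958190 to 56019647, minus strand), had 19.4 and 15.9 normalised CPM in siNT and 20.03 and 20.2 in siCnot1. Both siCnot1 values were above the controls, as for 32.7% of all tested genes, but siNT replicate 1 was close to them. The log2 fold change was 0.19 (95% interval -0.053 to 0.43, adjusted p = 0.247 from edgeR), which did not pass. The Pot1b to Pot1a ratio per length was 0.149 and 0.109 in siNT, against 0.191 and 0.159 in siCnot1, a log2 difference of 0.45 (exact two-sided permutation p = 0.333, the smallest that 2 libraries against 2 can give). With a library left out it ranged from 0.23 to 0.67. The Pot1a to Acd ratio, of the POT1 that predominates to its tether, was 1.04 and 1.16 in siNT, against 1.07 and 1.31 in siCnot1, with overlap.

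Tert, the catalytic subunit of telomerase (chromosome 13, 73775030 to 73797962, plus strand), rose from a low level. It had 432 and 333 counts in siNT and 650 and 481 in siCnot1, or 13.9 and 10.6 against 19.4 and 14.4 normalised CPM. The replicates of each group spread widely, and the lower siCnot1 library lay just above the higher control. The fitted log2 fold change was 0.46 (SE 0.148, 95% interval 0.16 to 0.77, adjusted p = 0.0203 from edgeR), the largest rise of the 9 under TMM scaling. The call was lost without siNT replicate 1 (0.67, adjusted p = 0.132 from edgeR), siNT replicate 2 (0.28, adjusted p = 0.425) or siCnot1 replicate 1 (0.23, adjusted p = 0.410), without a filter on low counts (0.46, adjusted p = 0.242) and with DESeq2 (0.46, adjusted p = 0.0571). The nearest tested gene after it, Slc12a7, a potassium-chloride cotransporter gene 83210 bases away, also rose (log2 fold change 0.35, SE 0.0584, adjusted p = 6.92e-05 from edgeR). Clptm1l, 6272 bases before it, did not pass (-0.076, adjusted p = 0.456).

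Ctc1, the largest CST subunit (chromosome 11, 68906014 to 68927299, plus strand), rose slightly and evenly. It had 4291 and 4317 counts in siNT and 5336 and 5234 in siCnot1. In normalised CPM these were 137.9 and 137.7 against 159 and 156, with replicates close to each other and the groups apart. The log2 fold change was 0.20 (SE 0.0589, adjusted p = 0.014 from edgeR), 1.15 times the control level. It lost the call without a filter on low counts (0.19, adjusted p = 0.0597) and in each of the 4 fits that left out a library, where its size stayed at 0.18 to 0.21 and the adjusted p from edgeR was 0.0639 to 0.122. The other CST subunits did not pass: Stn1 went from 27.1 ± 3.19 to 25.9 ± 0.251 normalised CPM and Ten1 from 6.39 ± 1.28 to 5.68 ± 1.06 (SD, n = 2 per group). The Ctc1 to Stn1 ratio per length was 2.67 and 2.25 in siNT, against 2.97 and 2.88 in siCnot1.

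**Figure D2:**
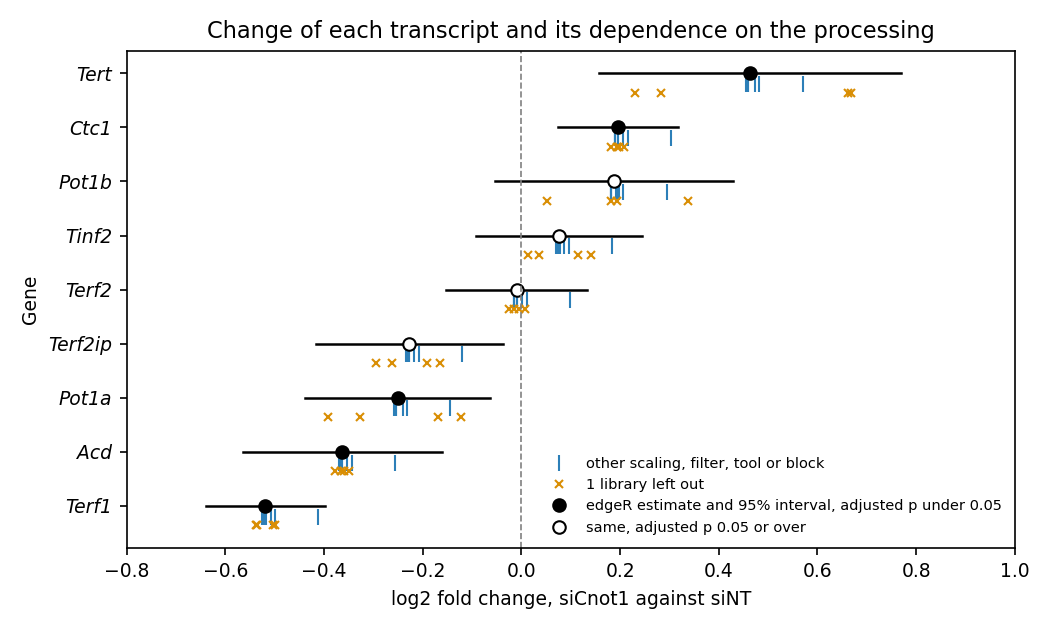
Log2 fold change of each transcript, siCnot1 against siNT, with the edgeR estimate and its 95% interval (circle and line, filled where the adjusted p is under 0.05). Blue ticks are fits with another scaling, filter, tool or a replicate block and orange crosses are fits with 1 library left out; the Terf1 values stay between -0.54 and -0.41 while those of Tert range from 0.23 to 0.67.

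**Figure D3:**
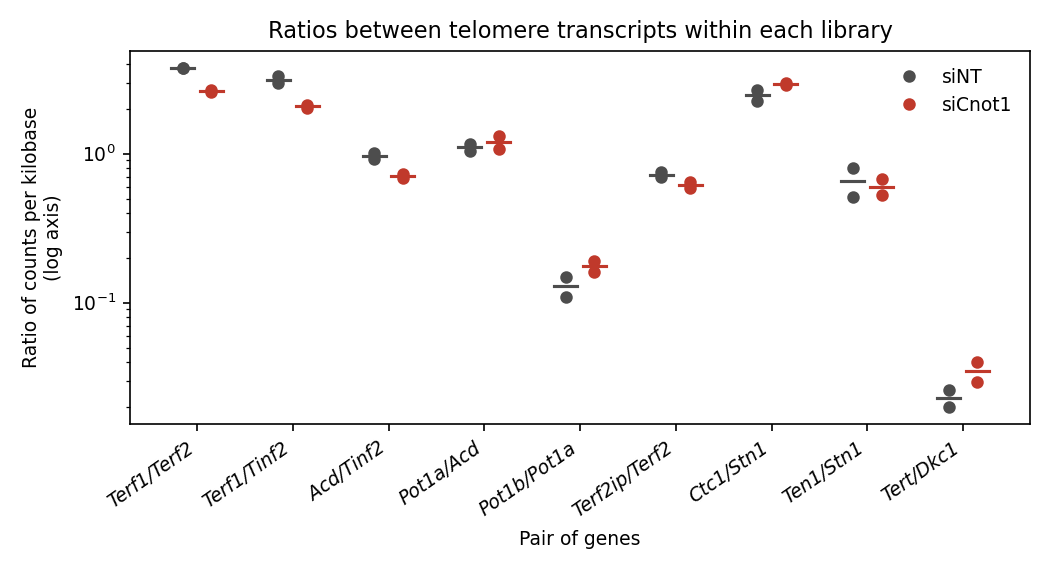
Ratios of counts per kilobase between pairs of telomere transcripts in each library, on a log axis (siNT in grey, siCnot1 in red, short lines are group means). The Terf1 to Terf2 ratio drops from 3.76 to 2.64 in the mean, while Pot1a to Acd and Ten1 to Stn1 overlap between the groups.

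Terf2, Terf2ip and Acd lie on chromosome 8, as does Cnot1. The median log2 fold change over its 965 tested genes was 0.0023, against 0.0084 for all. The medians of the other chromosomes that carry a member ran from -0.024 on chromosome 14 to 0.018 on chromosome 1. In the coding sequence, Pot1b, Pot1a and Terf1 had few G or C at the third codon position, 42.3%, 43.5% and 45.7% against a median of 61.1% over tested genes, and Terf2ip had the most of the 9, at 72.1%. The fallen Pot1a and Terf1 lay below the risen Ctc1 (57.8%) and Tert (66.3%), while the fallen Acd (62.6%) lay between those that rose. A link between codon content and the changes was not tested.

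To set these 9 beside the rest of the telomere machinery, 7 lists of 92 other genes were examined, of which 91 had enough counts to be tested. Of these, 16 rose and 23 fell at an adjusted p under 0.05 in edgeR (17.6% and 25.3%, against 15% and 14.7% of all genes), and their median log2 fold change was -0.039. With library totals in place of TMM, 24 rose and 12 fell. With only genes of at least 1 CPM in 2 libraries, 15 rose and 23 fell, beside 2802 and 2644 of all 14767 genes.

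Among the CST partners and polymerase alpha-primase, 1 of 6 passed the test, and it rose. Pola1, the catalytic subunit that CST brings to the telomere, rose from 109 ± 8.39 to 139 ± 3.77 normalised CPM (SD, n = 2 per group; log2 fold change 0.35, adjusted p = 0.000288 from edgeR), a call that was lost without siNT replicate 2.

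Among the 15 genes for the telomerase RNA, its assembly and its trafficking, 5 fell and 1 rose. With library totals 2 fell and 3 rose. Without a filter on low counts 2 fell and 0 rose, with a replicate block 4 and 0, and with DESeq2 5 and 0. With any library left out fewer fell and the rise was lost. Those that fell included Ruvbl1, a AAA+ ATPase that helps to assemble telomerase (log2 fold change -0.44, SE 0.0592, adjusted p = 4.5e-06 from edgeR), its partner Ruvbl2 (-0.23, adjusted p = 0.0078), and the H/ACA proteins Gar1 (-0.34, adjusted p = 0.000786) and Nhp2 (-0.19, adjusted p = 0.022). These also serve other complexes and ribosomal RNA modification. The Tert to Dkc1 ratio per length, with Dkc1 encoding the H/ACA protein dyskerin, was 0.0261 and 0.0200 in siNT, against 0.0400 and 0.0295 in siCnot1. Terc, the telomerase RNA, had only 21 and 25 counts in siNT and 20 and 18 in siCnot1 in these poly(A)+ libraries, and did not pass (adjusted p = 0.651 from edgeR).

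Of the 25 factors that interact with shelterin or process telomeres, 5 fell and 1 rose. With library totals the balance turned to 3 lower and 6 higher. Without a filter on low counts 2 fell and 0 rose. With any library left out fewer fell and the rise was lost. Xrcc5, which encodes KU80 of the end-joining Ku dimer, fell by 0.41 (SE 0.0581, adjusted p = 9.56e-06 from edgeR), the checkpoint kinase gene Atm by 0.31 (adjusted p = 0.000816), Nbn of the MRN complex by 0.37 (adjusted p = 0.00559) and Rif1, which represses ZSCAN4 and telomere recombination in ESCs, by 0.21 (adjusted p = 0.0102), all on the log2 scale. Of the 19 genes for telomere-repeat binding and telomeric chromatin, 6 fell and 4 rose, against 3 and 4 with library totals, and 2 to 5 and 0 to 2 with a library left out, fewest without siNT replicate 2. Zbtb10, a zinc finger protein that binds telomeric repeats, fell by 0.71 (SE 0.098, adjusted p = 6.6e-06 from edgeR), Kmt5b, a histone H4 lysine methyltransferase gene, by 0.41 (adjusted p = 6.87e-05) and Cbx5, which encodes HP1 alpha, by 0.26 (adjusted p = 0.00135). H3f3a, which encodes histone H3.3, rose by 0.25 (adjusted p = 0.0012).

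Of the 11 ZSCAN4-linked genes tested, 7 rose and 2 fell, with a median log2 fold change of 1.33. The rises were those of the 6 Zscan4 paralogs themselves, with log2 fold changes of 1.16 (Zscan4a) to 1.84 (Zscan4f), and of Tcstv1, which had 1 and 2 counts in siNT and 11 in each siCnot1 library. With DESeq2, limma-voom or a replicate block, 6 genes rose in place of 7. The count was also 6 without a filter on low counts or with at least 1 CPM in 2 libraries. It was smaller than 7 with any library left out, too. Tbx3 fell, and Tcstv3 and Dmc1 did not pass the test. The study followed ZSCAN4 genes in these libraries, so their direction is not independent evidence. Counts summed over Zscan4a to Zscan4f, paralogs that share reads, were 2212 and 2206 in siNT, against 6313 and 6403 in siCnot1. Zscan4d rose from 24.3 ± 0.129 to 67.8 ± 3.13 normalised CPM (SD, n = 2 per group), and Zscan4e and Zscan4c had log2 fold changes of 1.60 and 1.33 (adjusted p = 6.39e-10 and 6.44e-09 from edgeR), with the split among paralogs uncertain. In the opposite direction, Smc1b, a meiotic cohesin gene listed because meiotic recombination genes have been tied to ZSCAN4 bursts, fell from 64.3 ± 0.565 to 29.9 ± 1.27 (log2 fold change -1.11, adjusted p = 2.18e-09 from edgeR). Spo11, the meiotic break enzyme, had 1 count over all 4 libraries and was not tested.

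Of the 5 genes of the meiotic telomere complex, Terb2 fell and Sun1 rose. Terb2, part of the link between TRF1 and the nuclear envelope in meiosis, went from 10.4 ± 1.28 to 4.75 ± 0.799 normalised CPM (log2 fold change -1.13, adjusted p = 3.44e-05 from edgeR). Sun1, a nuclear envelope protein, had a log2 fold change of 0.29 (adjusted p = 0.00201 from edgeR). The former call was lost without siNT replicate 2, and the latter without either siNT replicate or siCnot1 replicate 1. Without a filter on low counts the Sun1 call was lost as well. Of 10 regulators of Tert transcription, 4 fell and 1 rose. With library totals the balance turned to 1 lower and 2 higher, and 1 fell without siNT replicate 1 and 2 fell without siNT replicate 2 or siCnot1 replicate 1. The activators Mycn (log2 fold change -0.57, adjusted p = 9.08e-07 from edgeR), Ctnnb1 (-0.23, adjusted p = 0.0015) and Sp1 (-0.21, adjusted p = 0.00535) fell, as did the MYC antagonist Mnt (-0.36, adjusted p = 0.0081). Wt1, a zinc finger regulator, had 21 and 4 counts in siNT and 52 and 45 in siCnot1 (adjusted p = 0.013 from edgeR). This change rested on few counts and was lost without siNT replicate 2 or siCnot1 replicate 1, and also without a filter on low counts.

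**Figure D4:**
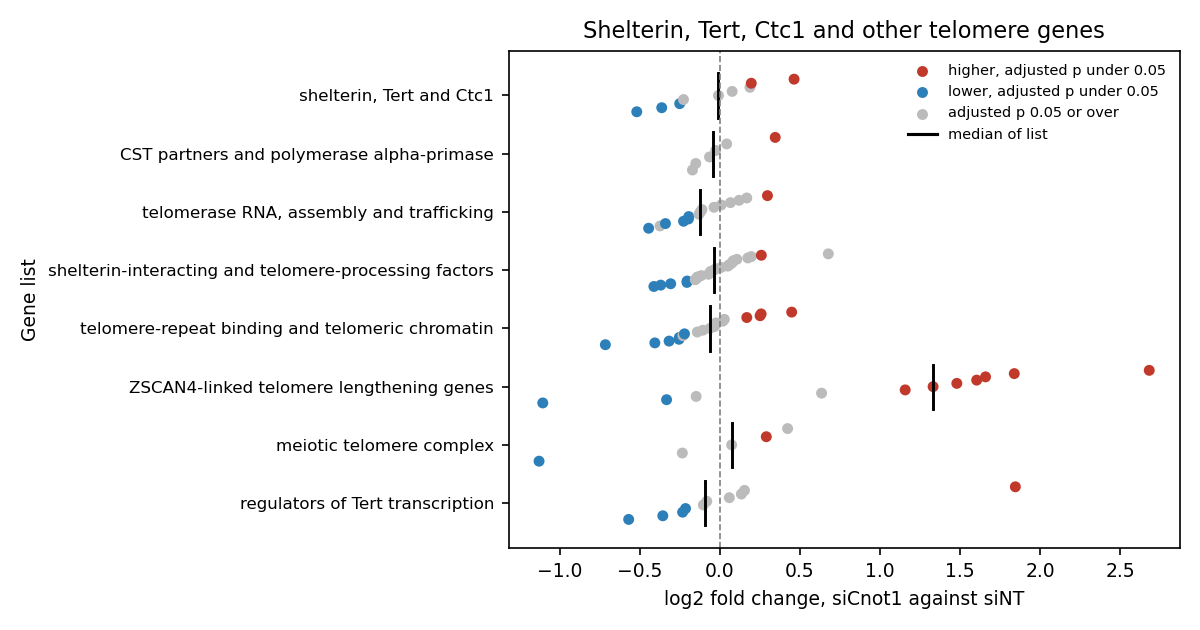
Log2 fold change, siCnot1 against siNT, of the 9 transcripts (top) and of 7 lists of other telomere genes, with 1 point per tested gene and a black line at each list's median. Red points are higher and blue points lower at an adjusted p under 0.05 in edgeR; the medians of the 7 other lists lie between -0.12 and 0.073 apart from the ZSCAN4-linked genes at 1.33.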

How the data were processed

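RNA-seq was measured in 2 siNT and 2 siCnot1 libraries of E14 ESCs. The authors deposited raw counts per gene, without normalization or pooling, together with each gene's exon length. DESeq2 1.40.2 was the study's test of these libraries. The submitters' processing notes also name fastp 0.19.4 (a read filter), HISAT2 2.2.1 (an aligner) and the build mm10 (GRCm38). The counting program is not given in the sources used here. Only 1275 of 48869 genes matched by symbol have a start or end of GRCm38.p6 in the deposited table, and none (0) of the 9 members does. Gene positions are therefore given as deposited and are taken to be GRCm39, which was not checked against a GRCm39 annotation. UTR and promoter sequences are GRCm38.

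Depth was 32135824 to 32557440 counts, where 3 counts are 0.0921 to 0.0934 CPM (counting error only). Genes passing filterByExpr (minimum count 10) were tested with edgeR 4.0.16 in R 4.3.3 (TMM, quasi-likelihood, Benjamini-Hochberg over 18144 genes, condition as the only term), with limma 3.58.1 and DESeq2 1.42.0 as alternatives. SE is the log2 fold change over the root of F. On simulated counts for 18144 genes, all given the same dispersion, 165 of 200 genes changed 2-fold were recovered with 0 false calls. The simulation does not bear on changes under 2-fold, such as those of the members, or on data where more genes change. Fixed rules named the 9 members, Cnot1, up to 4 genes with the smallest adjusted p per list, untested list genes, and overlapping or nearest tested genes. Within-library ratios other than that of Pot1b to Pot1a, sequence motifs, codon content and chromosome medians were added later. The members and lists were chosen with earlier results of these data known.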

Additional observations from a re-analysis of the deposited data

How the results depend on the processing

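Alternatives were another scaling, filter or tool, a replicate block, and leaving out each library. Terf1 and Cnot1 kept their calls under all 12. Without a filter on low counts, 0 members were higher, 8 other telomere genes were higher and 14 lower, with a member median of -0.0157. DESeq2 gave 1 higher member. Library totals gave 1 lower member, 12 lower other genes and a median of 0.0977, and upper-quartile scaling or at least 1 CPM in 2 libraries gave medians of 0.0103 and 0.0013. Terf2 changed sign to 0.0103, 0.0977 and 0.0013 under those 3 settings and to 0.0075 without siNT replicate 2. With 1 library left out, where the lone library is assumed to vary like the pair, higher members numbered 0 to 1, lower members 1 to 2, other genes 6 to 11 higher and 8 to 19 lower, the median was -0.0256 to 0.0075, and the Pot1b to Pot1a log2 difference was 0.23 to 0.67. Of 168 counts per list, 120 stayed within 1.5 times. Over all genes, 2719 higher and 2668 lower calls became 1303 and 1450 without a filter and 3989 and 1567 with library totals. With a library left out they became 625 to 1989 and 705 to 1960, fewest without siNT replicate 1. Otherwise the causes were not tested. The labels number replicates 1 and 2 in each group, but the sources used here do not say whether libraries with the same number were made together. The correlation between their deviations from group means was 0.0109, which cannot settle this. With the replicate block 2 members were higher, 3 lower, and 13 and 22 other genes. Each group had 2 libraries, and the least abundant members, Tert and Pot1b, had 333 to 676 counts per library.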
